A study of Homo sapiens with 5 samples.

Results

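The mitochondrial ribosomal protein genes were taken as every gene of the deposited count table whose symbol is MRPL or MRPS followed by a number and at most 1 letter A to C. The rule found 77 of 25382 genes, 48 with a large subunit symbol (MRPL) and 29 with a small subunit symbol (MRPS). Of these, 76 had enough reads to be tested, and MRPS24 did not.

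Mitochondrial ribosomes translate the few respiratory chain proteins that the mitochondrial genome itself encodes. Their RNA comes from mitochondrial DNA, but all of their proteins are encoded in the nucleus, made in the cytosol and imported. The small subunit binds the messenger RNA and the large subunit joins the amino acids. Members with low numbers have bacterial counterparts, and most members with high numbers belong to mitochondria alone. Symbols do not always match structure, since MRPS30 and MRPS18A sit in the large subunit and MRPS36 is a component of a dehydrogenase complex.

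The cells were MDA-MB-231, an established human breast cancer line that is mesenchymal and lacks hormone receptors, grown in serum-containing medium without any drug or genetic change named in the labels. Shear stress split the culture into cells that came off (weakly adherent, 3 libraries dated 6, 12 and 15 March) and cells that stayed (strongly adherent, 2 libraries dated 6 and 15 March). The study asked how adhesion strength relates to metastatic potential within a tumour cell population. The labels do not say that the libraries came from separate cultures, so a p-value here measures no more than how these samples spread, and that spread may be technical. In such bulk RNA, fewer cells of a type and less RNA per cell cannot be told apart.

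Gene counts ran from 19630386 to 21707459 per library. The markers of the labelled line were present: VIM stood at 2458 to 2746 CPM (read counts scaled to library size by TMM) and CD44 at 1471 to 1696, while ESR1 and PGR were at 0 in every library and FOXA1 did not pass 0.0950. ERBB2 stood at 82.8 to 93.9, GATA3 at 12.36 to 14.03, EPCAM at 19.4 to 25.8 and CDH1 at 1.18 to 2.07. Of 4 fibroblast genes DCN was at 0, while COL1A1 stood at 7.23 to 13.0, COL1A2 at 3.85 to 9.13 and PDGFRB at 2.80 to 3.77. The leukocyte gene PTPRC reached at most 0.255.

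The start regions of these genes share short letters more often than other genes do, and a few are printed to show them. RefSeq (GRCh38.p14) gave a window from 250 bases before to 50 bases after the annotated start for 68 of the 77 members. MRPL2, MRPL10, MRPL13, MRPL15, MRPL21, MRPL23, MRPL35, MRPS28 and MRPS36 had no entry. Each window was searched on both strands for AAGATGGC, letters of the YY1 motif, CCGGAAGT, letters of the ETS family motif, and GCATGCGC, a part of the NRF1 motif. These 3 strings do not contain one another. YY1, ETS factors such as GABPA, and NRF1 are transcription factors known for their sites at genes of mitochondrial proteins.

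The YY1 letters stood in 20 of 68 members (29.4%), against 4.0% of 14202 promoters of coding genes in the count table and 3.0% of all 27305 promoters. The ETS letters stood in 11 members (16.2%, against 6.3% and 4.4%), and the NRF1 letters in 6 (8.8%, against 4.3% and 3.3%). Both subunits held the YY1 letters about equally, in 29.3% of 41 large and 29.6% of 27 small subunit members. Of the 21 YY1 matches, 15 lay on the transcript's strand after the start, with their first base 7 to 36 bases in. A match in that place was found in 22.1% of members and in 2.31% of the coding genes' promoters. The YY1 letters hold ATG, the letters of a start codon, and the place of these matches relative to the coding sequence was not tested. None of the 3 strings was found in 40 of the 68 windows, which says only that these letters are not there. Matches are descriptions of sequence and not measured binding.

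The first set shows 5 of the members with the YY1 letters just after the start, chosen because their levels are described below. Each runs 5′ to 3′ on the transcript's strand from 30 bases before to 30 after the start, and capitals mark a searched string.
MRPL42 (chr12:93467484-93467543, plus strand): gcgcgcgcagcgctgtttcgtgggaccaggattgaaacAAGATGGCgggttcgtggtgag
MRPS10 (chr6:42217832-42217891, minus strand): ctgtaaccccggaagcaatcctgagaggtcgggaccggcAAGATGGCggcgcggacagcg
MRPL51 (chr12:6493233-6493292, minus strand): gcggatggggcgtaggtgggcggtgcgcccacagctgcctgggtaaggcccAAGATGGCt
MRPS18A (chr6:43687762-43687821, minus strand): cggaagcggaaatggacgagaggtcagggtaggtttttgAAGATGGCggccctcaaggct
MRPS30 (chr5:44808917-44808976, plus strand): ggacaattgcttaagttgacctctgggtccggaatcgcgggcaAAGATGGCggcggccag

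The second set shows the 3 members with a searched string and the smallest p in each direction between adhesion groups, less MRPL51, which stands above. In order of p these are the higher MRPL36 and MRPL32 and the lower MRPS34, MRPL17 and MRPS12. Each stretch holds 60 bases around the match nearest the start, with the searched string in capitals on either strand. That of MRPS12 lies farther upstream, with its match 212 bases before the start.
MRPL36 (chr5:1799839-1799898, minus strand): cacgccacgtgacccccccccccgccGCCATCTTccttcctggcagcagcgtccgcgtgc
MRPL32 (chr7:42932311-42932370, plus strand): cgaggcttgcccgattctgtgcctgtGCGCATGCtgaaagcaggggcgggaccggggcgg
MRPS34 (chr16:1773121-1773180, minus strand): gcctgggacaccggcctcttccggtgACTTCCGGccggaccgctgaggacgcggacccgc
MRPL17 (chr11:6683350-6683409, minus strand): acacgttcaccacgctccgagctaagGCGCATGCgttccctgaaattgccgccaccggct
MRPS12 (chr19:38930706-38930765, plus strand): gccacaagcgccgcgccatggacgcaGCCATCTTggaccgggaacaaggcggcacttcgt

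**Figure D1:**
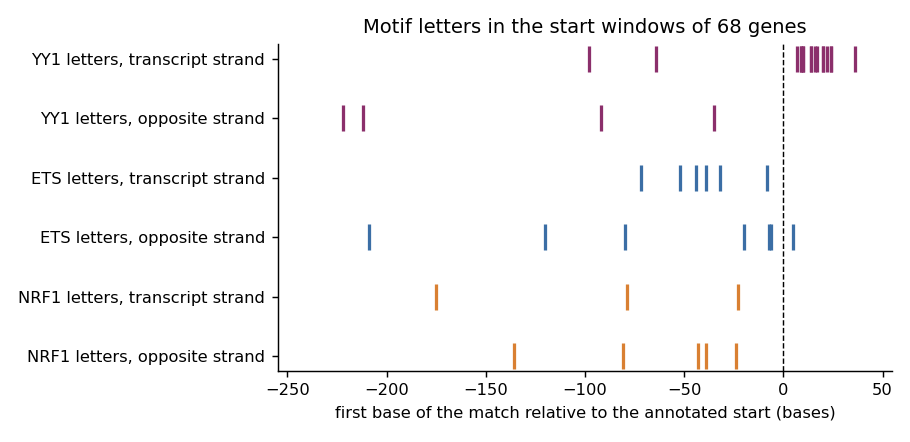
Position of each match of the YY1, ETS and NRF1 letters in the start windows of 68 members, in bases from the annotated start (dashed line); each tick is 1 match and rows split motif and strand. The YY1 letters on the transcript's strand gather after the start, 15 of 21 matches, while the other rows lie mostly before it.

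Levels differed widely between members of what is built as 1 particle. Mean CPM of the 76 tested members ran from 17.02 to 187, a 10.99-fold range. Per kb of the transcript with the longest coding sequence, the level ran from 8.62 to 133 CPM per kb (15.4-fold), with a median of 45.7. MRPL14 stood highest at 133 CPM per kb, followed by MRPL12, a stalk protein also known to bind the mitochondrial RNA polymerase, at 113, and MRPL24 at 107. MRPS11 (8.62), MRPS14 (8.92) and MRPS33 (9.66) stood lowest. Their mean levels were 31.4, 18.85 and 41.0 CPM, on annotated transcripts of 3644, 2115 and 4241 bases. Of these bases 582, 384 and 318 are coding. Levels per kb depend on the annotated length, and which transcripts the cells held was not tested. The median level was 47.6 CPM per kb for the large and 36.9 for the small subunit. Another gene on the same strand overlaps 68.2% of the annotated exon bases of MRPL12, so the level of MRPL12 is uncertain where reads could be shared.

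MRPS24 was listed with 4 to 6 reads per library. The only annotated gene that overlaps its exons is the read-through gene URGCP-MRPS24 on the same strand. The overlap covers 23.2% of the exon bases of MRPS24, and the row of URGCP-MRPS24 holds 0 reads in all 5 libraries. Whether reads shared by both genes were left out of both rows was not tested, so the low count may not be the gene's level. More than 20% of the exon bases were overlapped in 14 members in all, and 34 members have annotated pseudogenes, which can take reads from the parent gene as not unique.

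The total of these transcripts differed between weakly and strongly adherent cells by less than the spread of the libraries. The members took 0.478% of gene counts on 6 March and 0.467% on 15 March in strongly adherent cells. In weakly adherent cells they took 0.480%, 0.475% and 0.467% on 6, 12 and 15 March. Libraries of a shared date lay closer to each other than libraries of a shared population. The mean share of the weakly adherent group was 0.474% ± 0.0064 (SD, n = 3), and that of the strongly adherent group 0.473% ± 0.0078 (SD, n = 2). Large subunit genes summed to 2967 ± 102 and 2940 ± 131 CPM, and small subunit genes to 1782 ± 32.0 and 1782 ± 36.8. The ratio of small to large was 0.596 and 0.617 in the strongly adherent and 0.592, 0.599 and 0.612 in the weakly adherent libraries. The groups overlapped in this ratio, and the 2 libraries of 15 March held the highest value of each group.

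**Figure D2:**
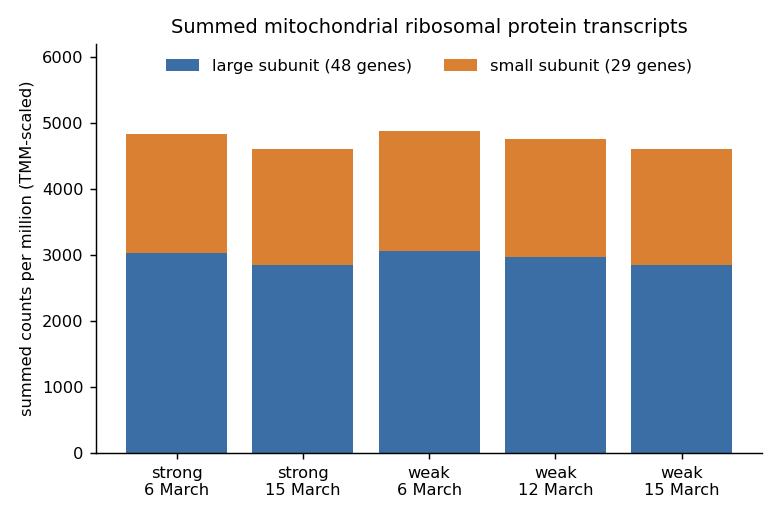
Summed TMM-scaled CPM of the 77 members in each library, with large (48 genes) and small (29 genes) subunit stacked. The libraries of 6 March reach 4840 and 4876 and those of 15 March 4603 and 4609, in strongly and then weakly adherent cells.

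No single member passed the test between adhesion groups. With edgeR's quasi-likelihood test, 0 of 76 members had an adjusted p under 0.05, where 2.68% of all 13297 tested genes did. MRPL33 and MRPS31 had an unadjusted p under 0.05 (2.63% of members, against 14.2% of all genes), and DESeq2 and limma-voom also called 0. The log2 fold change (weakly minus strongly adherent) was above 0 in 43 of 76 members. Its median was 0.01, with quartiles of -0.03 and 0.06, beside a median of -0.00 and quartiles of -0.10 and 0.11 over all genes.

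The intervals that the fit gave were narrow. The median standard error of a member was 0.09 on the log2 scale. All 76 of the 95% intervals lay within a 1.5-fold change either way. Intervals cover the spread between these 5 libraries, which may be technical, and say nothing of smaller differences. They may also be too narrow, since false calls of this fit exceeded the threshold's rate in simulated data with uneven spread.

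All 3 weakly adherent libraries lay above both strongly adherent ones in 7 members, against 15.5% of all genes tested. They lay below both in 5, against 14.5%. Those above were MRPL1, MRPL19, MRPL33, MRPL35, MRPL36, MRPL46 and MRPS31. Those below were MRPL14, MRPL17, MRPL47, MRPL55 and MRPS12.

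**Figure D3:**
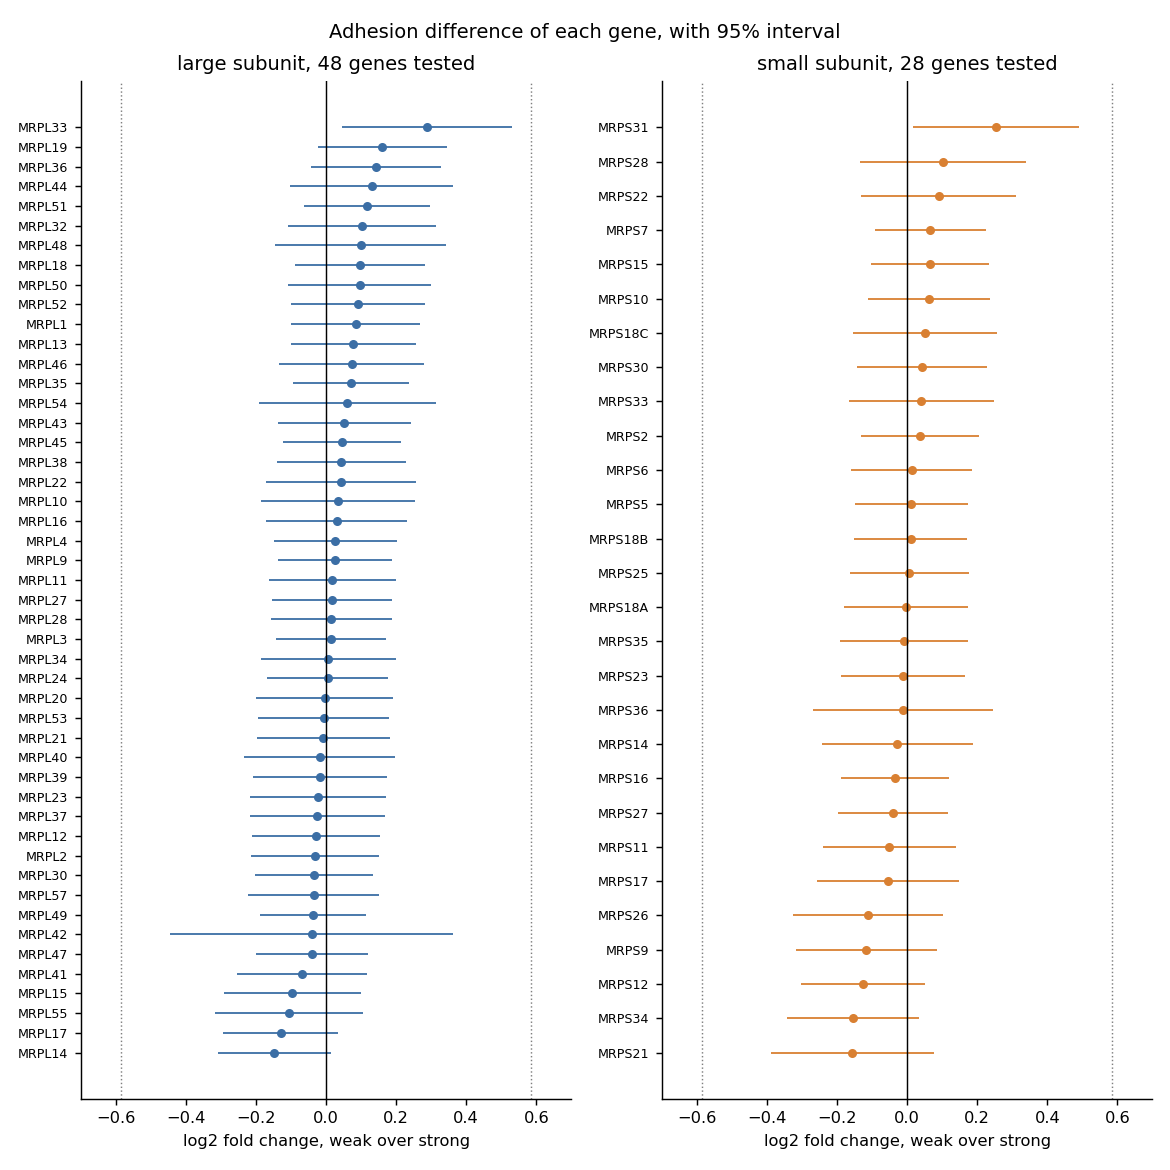
Log2 fold change, weakly over strongly adherent, of the 48 large and 28 small subunit genes tested, with 95% intervals from the edgeR fit; dotted lines mark a 1.5-fold change. Every interval stays inside the dotted lines, and those of MRPL33 and MRPS31 alone leave out 0.

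MRPL33, a small protein of the large subunit with a bacterial counterpart, had the largest difference. It stood at 46.6 and 42.0 CPM in strongly adherent cells (6 and 15 March) and at 62.0, 52.3 and 47.7 in weakly adherent cells (6, 12 and 15 March), the order kept for each member below. The groups did not overlap, although the weakly adherent library of 15 March lay just above the strongly adherent one of 6 March. The log2 fold change was 0.29 (SE 0.11, adjusted p = 0.246, edgeR). With the date as a block it was 0.30, and MRPL33 became the 1 member called (adjusted p = 0.00195, edgeR), where 6.2% of all genes were called higher. That fit has 1 residual degree of freedom. Another gene on the same strand overlaps 21.1% of the exon bases of MRPL33, and the part of shared reads in the difference was not tested.

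MRPS31, a small subunit protein particular to mitochondria, stood at 15.3 and 15.2 CPM in strongly adherent cells and at 19.7, 17.1 and 17.8 in weakly adherent cells. The groups did not overlap, and the log2 fold change was 0.25 (SE 0.11, adjusted p = 0.306, edgeR). It missed the threshold with the date block too (adjusted p = 0.0518, edgeR). With the block and the trend over coding length removed together, MRPS31 and MRPL33 were both called higher, as were 591 of all 13297 genes. MRPS31 has 4 annotated pseudogenes.

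MRPL19 stood at 67.5 and 77.3 CPM in strongly and at 78.1, 85.6 and 79.2 in weakly adherent cells. MRPL36 stood at 42.6 and 41.5 against 49.1, 46.0 and 44.2. MRPL51 stood at 99.1 and 94.0 against 112, 106 and 96.0. The first pair did not overlap between groups and MRPL51 did, and their log2 differences of 0.16, 0.14 and 0.12 did not pass the edgeR test.

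On the other side stood MRPL14, which lies by the interface of the subunits, at 143 and 128 CPM in strongly and 124, 123 and 121 in weakly adherent cells. Its groups did not overlap, with a log2 fold change of -0.15 (SE 0.07, adjusted p = 0.412, edgeR). MRPL17 stood at 100.9 and 95.9 against 87.2, 95.01 and 87.7. MRPS12, the counterpart of the bacterial decoding-site protein S12, stood at 64.9 and 58.6 against 54.8, 58.2 and 56.7. Both were without overlap, and their log2 differences were -0.13 each. MRPS34 stood at 88.0 and 76.5 against 77.0, 68.7 and 75.8, and MRPS21 at 20.9 and 18.4 against 17.6, 18.5 and 16.7. Their groups overlapped, at log2 differences of -0.16 each, and neither passed the edgeR test.

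Small and large subunit genes gave similar medians. The median log2 fold change was 0.02 over 48 large subunit genes, 29 of them above 0, and 0.00 over 28 small subunit genes, 14 of them above 0. Grouped by structure, with MRPS30 and MRPS18A in the large subunit and MRPS36 left out, the medians were 0.02 and 0.01. The 44 members with bacterial numbers had a median of 0.01 and the 32 others tested a median of -0.00. The difference between these classes was not tested.

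The 3 MRPS18 paralogs are versions of a single bacterial protein that occupy different places in the mitochondrial ribosome. MRPS18A stood at 57.3 and 55.1 CPM in strongly and 58.8, 52.9 and 56.5 in weakly adherent cells. MRPS18B stood at 103 and 97.4 against 106, 98.8 and 97.8, and MRPS18C at 37.7 and 41.5 against 43.8, 41.6 and 37.8. The groups overlapped in all 3, with log2 fold changes of -0.00, 0.01 and 0.05. Genes on the opposite strand cover 47.0% of the exon bases of MRPS18A and 40.2% of those of MRPS18C.

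Of the other members named for their roles, MRPS12 was described above, and MRPS30, MRPS36, MRPL12 and MRPL11 had smaller differences. MRPS30 stood at 36.6 and 34.9 CPM in strongly and 36.2, 36.2 and 38.1 in weakly adherent cells. MRPS36 stood at 20.5 and 18.9 against 17.01, 21.7 and 19.9. MRPL12 stood at 128 and 108 against 121, 114 and 112, and MRPL11, a stalk-base protein, at 81.7 and 73.5 against 82.0, 80.5 and 73.2. The groups overlapped in each, with log2 fold changes of 0.04, -0.01, -0.03 and 0.02.

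Within a date, the weakly minus strongly adherent difference had a median of 0.02 on 6 March, with 45 of 76 members above 0, and of 0.00 on 15 March, with 39 above 0. The sign was the same on both dates in 48 members, a count given without its share over all genes.

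Between the dates the members' median lay farther from 0 than between the adhesion groups, a difference that was not tested. On 15 March, 65 of 76 members (85.5%) were below their level of 6 March, against 49.4% of all 13249 genes tested, with adhesion as a covariate over the 4 libraries of those dates. The median log2 difference (15 minus 6 March) was -0.08, beside 0.00 over all genes, and single members ran from -0.27 to 0.31. The edgeR test called 3 members lower on 15 March, MRPL33, MRPL10 and MRPL37, where 2.55% of all genes were called lower. It called 1 higher, MRPL42, where 6.74% of all genes were. An unadjusted p under 0.05 was reached by 20 of 76 members (26.3%), 19 of them lower, against 22.5% of all genes.

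Each population was then taken on its own. The median difference was -0.08 in strongly and -0.08 in weakly adherent cells. Of 76 members 45 were lower in both and 7 higher in both. Shares over all genes are not given for these counts, which describe the members alone. Across the 76 members the 2 differences correlated at r = 0.28, a description over genes that share their libraries. Both libraries of 15 March lay below both of 6 March in 37 of the 76 tested members (48.7%), against 19.7% of all genes, and above both in 4, against 21.8%. By library, the median deviation of the members from their mean over the 5 libraries was 0.03 and 0.05 on 6 March (strongly and weakly adherent), 0.00 on 12 March, and -0.04 and -0.04 on 15 March.

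**Figure D4:**
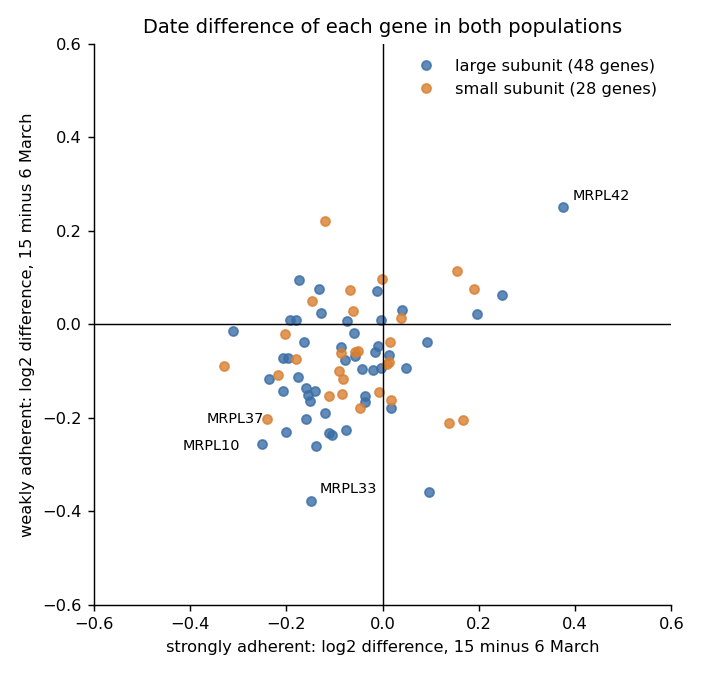
Log2 difference between 15 and 6 March of each tested member in strongly adherent cells (x axis) and in weakly adherent cells (y axis), coloured by subunit. Most points, 45 of 76, lie at the lower left, below 0 on both axes, and MRPL42 lies farthest out among the 7 above 0 on both.

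MRPL42, a large subunit protein particular to mitochondria, went the other way. It stood at 42.4 CPM in strongly and 39.0 in weakly adherent cells on 6 March, at 55.1 and 46.4 on 15 March, and at 57.0 in the weakly adherent library of 12 March. Both libraries of 6 March were the lowest, with a log2 difference of 0.31 (SE 0.08, adjusted p = 0.00263, edgeR). It has 4 annotated pseudogenes.

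MRPL10, which anchors the stalk of the large subunit, stood at 59.7 and 61.5 CPM on 6 March, at 55.7 on 12 March and at 50.2 and 51.5 on 15 March. The dates did not overlap (log2 difference -0.26, SE 0.08, adjusted p = 0.0133, edgeR). MRPL37 stood at 168.5 and 169.8 CPM on 6 March, at 149.5 on 12 March and at 146.5 and 144.7 on 15 March, again without overlap (log2 difference -0.22, SE 0.07, adjusted p = 0.0209, edgeR).

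MRPL33 reached -0.27 (SE 0.08, adjusted p = 0.0108, edgeR), although its strongly adherent library of 6 March (46.6) lay below its weakly adherent library of 15 March (47.7). MRPS26 (52.4 and 48.4 CPM on 6 March, 44.4 and 42.1 on 15 March) and MRPS22 (62.5 and 63.2, then 49.7 and 59.4) came nearest among those not called, with adjusted p = 0.0502 and 0.0532 in edgeR. Among members that were higher but not called, MRPS10, MRPL32 and MRPS35 had both libraries of 15 March above both of 6 March, at log2 differences of 0.13, 0.15 and 0.13, and MRPL19 had 0.10 with overlap.

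Of the large subunit, 42 of 48 members were below 0 between the dates, with a median of -0.09, and 3 were called lower and 1 higher. Of the small subunit, 23 of 28 were below 0, with a median of -0.06, and none was called by edgeR, where 3 had an unadjusted p under 0.05, or by DESeq2. With DESeq2's size factors in edgeR, and with no filter, the small subunit members MRPS22 and MRPS26 passed (adjusted p = 0.0453 to 0.0490, edgeR). The difference between the subunits was not tested. These date calls rest on 1 residual degree of freedom, and with DESeq2, or with adhesion left out of the model, 0 members were called in either direction. Few genes were called at all in those fits. DESeq2 called 149 of 17719 genes higher and 45 lower, and edgeR with adhesion left out called 0 of 13249. The date is a label of the library and holds no treatment, and what else differed between the days cannot be told apart from it.

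**Figure D5:**
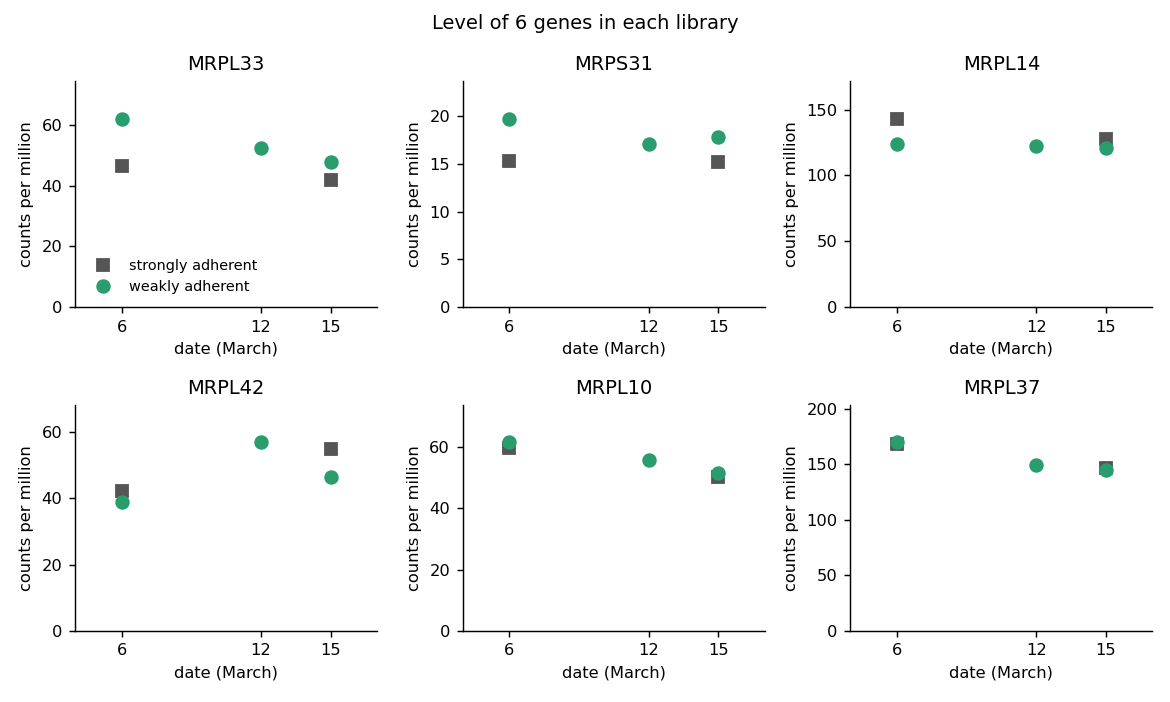
CPM of 6 members in each library by date, with strongly adherent libraries as squares and weakly adherent ones as circles; axes start at 0. Without overlap, MRPL33 and MRPS31 stand higher in weakly and MRPL14 in strongly adherent cells. The edgeR fit without the date block called none of these between adhesion groups. MRPL33 was called between the dates instead, lower on the last date than on the earliest. MRPL10 and MRPL37 fall from date to date. MRPL42 is lowest in both libraries of the earliest date and highest in the weakly adherent library of the middle date.

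The genes that work with the mitochondrial ribosome were tested between adhesion groups too. Of 6 further ribosomal proteins with other symbols, 26 assembly factors, 16 translation factors, 20 genes of mitochondrial tRNA synthetases and amidotransferases, 20 genes of mitochondrial transcription and RNA handling and 13 mitochondrially encoded messengers, edgeR and DESeq2 called 0. In edgeR an unadjusted p under 0.05 was reached by 1 of the further ribosomal proteins, 2 of the synthetase genes and 1 mitochondrially encoded messenger. Over all genes the shares were 2.68% called and 14.2% with an unadjusted p under 0.05 (edgeR). DAP3, a small subunit protein, stood at 165 and 150 CPM in strongly and 175, 154 and 155 in weakly adherent cells. TUFM, the elongation factor, stood at 215 and 204 against 202, 195 and 193, and POLRMT, the mitochondrial RNA polymerase, at 51.1 and 48.1 against 44.6, 38.9 and 48.8. MARS2, which loads methionine in mitochondria, came nearest at 26.3 and 24.1 against 20.2, 17.7 and 19.2, without overlap (log2 fold change -0.41, SE 0.10, adjusted p = 0.0589, edgeR). It was called lower with the date block (adjusted p = 0.0050, edgeR), where 702 of 13297 genes were called lower. ND6, a mitochondrially encoded subunit of complex I, stood at 85.3 and 73.8 against 108, 95.6 and 85.7, without overlap, and was 1 of 2 messengers of that list called higher with the block (log2 fold change 0.28, adjusted p = 0.00112, edgeR). With the block 6.2% of all genes were called higher.

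Among 75 cytosolic ribosomal proteins edgeR called 0 between adhesion groups, where 7 (9.33%, against 14.2% of all genes) had an unadjusted p under 0.05 and DESeq2 also called 0. With the date block it called 7 (9.33%), all higher, against 6.2% of all genes. RPS27A, made as a fusion with ubiquitin, stood at 392 and 364 CPM in strongly and 503, 466 and 427 in weakly adherent cells, without overlap (log2 fold change 0.30, adjusted p = 0.0874, and with the block 1.05e-04, edgeR). Among 74 nuclear subunits of the respiratory chain and ATP synthase edgeR called 1 without the block, COX7A2, a subunit of cytochrome oxidase. Of all genes 2.68% were called in that fit. COX7A2 stood at 109 and 98.2 CPM in strongly and 132, 129 and 126 in weakly adherent cells (log2 fold change 0.32, SE 0.08, adjusted p = 0.0436, edgeR), with no overlap.

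Between the dates, most genes of several of these lists were lower on 15 March as well. The calls below stand beside 2.55% of all genes called lower and 6.74% called higher, and with adhesion left out of the model edgeR called 0 of all 13249 genes. All 13 mitochondrially encoded messengers, the templates of the mitochondrial ribosome, were lower on 15 March, 12 of them called by edgeR, with a median of -0.37. ND1, a subunit of complex I, stood at 3742 and 3795 CPM on 6 March, at 2608 on 12 March, and at 2331 and 2834 on 15 March. Of 75 cytosolic ribosomal proteins 72 were lower, 15 called, with a median of -0.14. Of the assembly factors 1 was called higher and 1 lower, of the translation factors 1 higher, of the synthetase genes 0 (5 with an unadjusted p under 0.05), and of the respiratory chain subunits 3 higher and 1 lower. The 20 genes of mitochondrial transcription and RNA handling split evenly, 10 lower and 10 higher, and TFAM, which packs mitochondrial DNA and starts its transcription, was called higher. TFAM stood at 103 and 91.2 CPM on 6 March, at 119 on 12 March, and at 114 and 113 on 15 March (log2 difference 0.22, adjusted p = 0.0266, edgeR). Of the further ribosomal proteins, AURKAIP1 was called lower at 106 and 101.2 CPM on 6 March against 83.8 and 93.3 on 15 March (log2 difference -0.23, adjusted p = 0.0188, edgeR).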

How the data were processed

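Total RNA of 5 libraries was sequenced as 50 bp single-end reads from a stranded kit, per the labels' protocols. STAR, cutadapt, HTSeq, FastQC, DESeq2 and build hg19 are listed in the submitters' processing notes. The strand setting, the annotation and the RNA selection were not stated there or in the labels. The authors deposited raw counts per symbol and a table of log2 values; only the counts were used. HTSeq's 5 summary rows stayed out (no feature 6.49% to 8.08%, not unique 16.0% to 16.9% of reads).

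edgeR 4.0.16 (TMM, filterByExpr, robust quasi-likelihood F test, Benjamini-Hochberg over all genes, threshold 0.05) was fitted to whole tables in R 4.3.3, beside DESeq2 1.42.0 and limma 3.58.1. Adhesion used 5 libraries and no covariate (coefficient of variation 7.91%, 3 residual degrees of freedom). Dates used 4 libraries with adhesion as covariate (1 residual degree of freedom). The fits were tested on simulated data. With a spread made as uneven between genes as estimated here, false calls in that test exceeded the threshold's rate on average in the adhesion fit, in that fit with the date block and most in the date fit, so calls are less certain than their adjusted p states.

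Libraries with the same date in their titles were treated as pairs of a shared day; their deviations from group means correlated at 0.34 (6 March) and 0.20 (15 March) over all genes, and 0.36 and 0.11 over the members. The weakly adherent library of 12 March gave -0.16 with the strongly adherent library of 6 March and 0.16 with that of 15 March (members -0.33 and 0.33). With only 2 strongly adherent libraries these are the same value with its sign turned. None of these correlations is thus a separate observation, and the pairing rests on the titles. Replicates differed beyond counting noise. Lengths and overlaps came from GENCODE annotation by symbol, and 92.0% of tested genes had a coding length. That annotation is on GRCh38, another build than the hg19 listed for the counts. Mitochondrially encoded genes were matched by the symbols the table uses, since the spelling first planned found none. Named members were those with the smallest p in each direction (5 each), 8 chosen for their role, and the 3 highest and lowest per kb. The other lists' names were drawn from the 2 smallest p of each, with DAP3, TUFM, POLRMT and TFAM. The members and lists were chosen with earlier results of these data known. ND1 and AURKAIP1 were chosen after their values were seen.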

Additional observations from a re-analysis of the deposited data

How the results depend on the processing

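Between adhesion groups, 0 members were called higher or lower under the other size factors, DESeq2, limma-voom, no filter or a stricter filter, the coding length trend removed, and each library left out. With the date as replicate block 1 member was called higher (MRPL33), and with the length trend removed as well 2 (MRPL33 and MRPS31). Of all 13297 genes, the fit with the block called 825 higher, and that with the length trend removed as well called 591. Leaving out 1 library moved the members' median log2 fold change between -0.0214 and 0.0485 and the large subunit's between -0.0282 and 0.0745, the latter without the strongly adherent library of 6 March, so the sign of these medians is not settled.

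Between the dates, the higher call was lost with DESeq2 (0) and with adhesion left out (0). Of all genes, DESeq2 called 149 of 17719 higher and 45 lower, and edgeR with adhesion left out called 0 of 13249. The lower calls among members were 0 with DESeq2 and 0 with adhesion left out. They were 5 with DESeq2's size factors and 5 with no filter, both adding MRPS22 and MRPS26, and 11 with the length trend removed. Of all genes, the main fit called 338 of 13249 lower. With DESeq2's size factors 360 of 13249 were called lower, with no filter 374 of 17719, and with the length trend removed 650 of 13249. The cause of these shifts was not tested. Without the members overlapped by other genes over more than 20% of their exon bases, an alternative chosen after seeing the data, 2 were called lower, since MRPL33 is one of those left out.

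Uncalled members near 0 changed sign. MRPS18A went to 0.0361 with the replicate block, 0.0256 with the length trend removed and 0.0712 with both. MRPL12 went to 0.00817 with both, and MRPL11 to -7.82e-05 with the block. With 1 library left out, MRPS18A ran from -0.0385 to 0.0356, MRPS18B from -0.0275 to 0.0496, MRPS18C from -0.0171 to 0.127, MRPS36 from -0.0953 to 0.0778, MRPL12 from -0.138 to 0.0941 and MRPL11 from -0.0519 to 0.0944. Only MRPS24, with 4 to 6 reads per library, had too few reads to be tested.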
